A study of Homo sapiens with 12 samples.

Results

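The nuclear transcriptome of cells labelled DU145 was compared between 48 hours of pentamidine at 2.5 μM and 48 hours of vehicle, over 3 libraries per group. DU145 is an established human prostate cancer line, and pentamidine is an antiprotozoal diamidine that binds DNA rich in A and T. Both groups were wild type and were plated at 1000000 cells per well, and the study's methods give sterile distilled water as the vehicle. All nuclear genes of the count table were taken, 32049 of the 32077 genes kept, and the 6 libraries are 6 of 12 in the series, the others being the same treatment and vehicle in cells labelled PC3. Of the nuclear genes, 14297 had enough counts to be tested. Poly(A) RNA was sequenced, so transcripts without a poly(A) tail are under-represented in these counts.

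The libraries held between 13798818 and 14906017 counted reads each. Mitochondria-encoded genes took 4.41% to 4.66% of the counts in the vehicle libraries and 1.97% to 2.07% in the pentamidine libraries. Nothing in the labels says that the 3 libraries of a group came from separate cultures, so p-values measure the spread between these libraries, which may be technical. The label was checked against epithelial markers. KRT8 and KRT18, keratins of simple epithelia, were abundant (25835 to 38812 and 9962 to 13423 counts per library). EPCAM, CDH1 (E-cadherin), KRT19, CLDN4 and CLDN7 were at 0 to 10 counts in every library, although DU145 is known as a line with E-cadherin and EpCAM. The data thus go against the label in this respect, and the cells are called DU145-labelled throughout. The summed counts of the 4 leukocyte markers measured were near 0, with PTPRC and LYZ at 0 or 1 count in every library, and the fibroblast marker COL1A1 was at 25 to 40 counts. Any part of a mixed or other cell identity in the results was not tested.

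As background, cells meet a shortage of amino acids, a damaged mitochondrion, unfolded protein or viral RNA with the integrated stress response: kinases phosphorylate the initiation factor eIF2, general translation slows, and the mRNA of the transcription factor ATF4 is translated more. ATF4 binds C/EBP-ATF response elements and raises genes for amino acid synthesis, import and tRNA charging. NF-kB is a family of dimeric transcription factors held in the cytoplasm by inhibitors such as IkBα. Once released, it raises genes for chemokines, cytokines, adhesion molecules and its own inhibitors, and DU145 is known for a constitutively active NF-kB.

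A gene was called when its log2 fold change was beyond 1 in either direction with an adjusted p below 0.05 (edgeR quasi-likelihood test, Benjamini-Hochberg). Pentamidine-treated libraries had 194 nuclear genes called higher, 1.36% of those tested, and 80 called lower, 0.56%. Without the limit on fold change, 17.2% were higher and 16.7% lower at an adjusted p below 0.05, with a median log2 fold change over all nuclear genes of 0.0087. Vehicle and pentamidine libraries did not overlap for 258 of the 274 called genes, against 43.9% of all nuclear genes tested. The coding and non-coding genes named below for the largest changes were picked among called genes without overlap. For those genes a lack of overlap was fixed by the choice and adds no support. Only 20 of the genes called higher had a log2 fold change above 2, and 21 of those called lower were below -2. Most calls were of weakly expressed genes: the larger group mean was under 10 CPM (each count per 1000000 counted reads, here on TMM-normalised library sizes) for 158 of the genes called higher and 50 of those called lower. The count of genes called higher was 111 by DESeq2 and 92 when at least 10 counts were asked of every library.

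**Figure D1:**
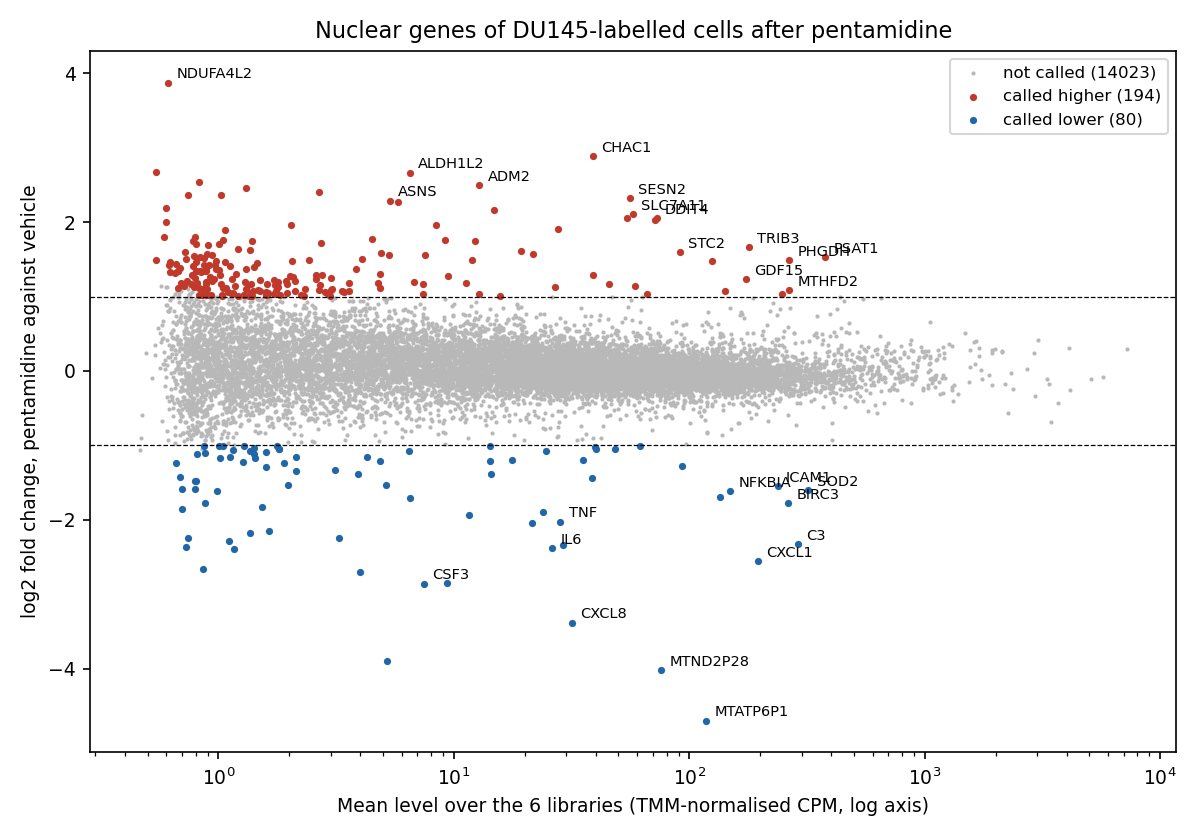
Log2 fold change of each tested nuclear gene (pentamidine against vehicle, vertical axis) against its mean level over the 6 DU145-labelled libraries (TMM-normalised CPM, log axis). The 194 genes called higher are red and the 80 called lower blue, with dashed lines at log2 fold changes of 1 and -1. CXCL1, C3, BIRC3, SOD2 and ICAM1 fell from the highest means among called genes that fell, and MTATP6P1 and MTND2P28 are nuclear copies of mitochondrial sequence.

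Regulators of the integrated stress response rose. Of the 18 tested members of that list, 8 were called higher and 0 lower, 13 were higher and 1 lower at the adjusted p alone, and the median log2 fold change was 0.98. CHAC1, a γ-glutamylcyclotransferase that breaks down glutathione, had the largest called rise of the list. It lies on chromosome 15 at 40952962 to 40956519 (ENSG00000128965, GRCh38). CHAC1 stood at 10.5, 9.10 and 8.18 CPM in the vehicle libraries and at 71.3, 67.2 and 67.8 CPM in the pentamidine libraries, which is 2.89 on the log2 scale (SE 0.078, adjusted p = 7.67e-36). The groups lay far apart, with every pentamidine library above every vehicle library. SESN2, sestrin 2, which restrains the growth kinase complex mTORC1, was at 19.97, 18.7 and 17.1 CPM with vehicle and 95.5, 92.6 and 92.1 CPM with pentamidine (log2 fold change 2.33, adjusted p = 3.8e-36). DDIT4, another inhibitor of mTORC1, was at 31.2, 25.7 and 27.9 CPM and then at 126, 113 and 112 CPM (log2 fold change 2.05, adjusted p = 1.33e-34). Neither gene overlapped between groups.

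The transcription factors of the list moved by different amounts. ATF4 itself was at 364, 382 and 359.8 CPM with vehicle and 739, 732 and 698 CPM with pentamidine, without overlap, and its log2 fold change of 0.97 (adjusted p = 1.11e-31) stayed just under the limit for a call. ATF3, a stress-induced bZIP repressor, was at 0.884, 1.11 and 0.546 CPM and 4.04, 5.13 and 4.35 CPM (log2 fold change 2.41, adjusted p = 2.24e-10). JDP2, a bZIP factor related to it, was at 2.28, 2.08 and 1.64 CPM and 9.36, 10.5 and 9.05 CPM (log2 fold change 2.27, adjusted p = 1.92e-15). An antisense transcript over JDP2, AF111167.2, was called too (1, 2 and 3 counts with vehicle, 18, 11 and 12 with pentamidine), and since the protocol of the libraries names no strand-marking step, its reads cannot be told apart from those of JDP2. The same doubt touches other genes that overlap an uncalled gene on the opposite strand, among them DDIT3 (with MARS), ALDH1L2 (C12orf45), SLC6A9 (CCDC24), ITGB4 (GALK1), NPHS1 (KIRREL2 and APLP1), SOD2 (WTAP and ACAT2) and IL6 (AC073072.1). DDIT3, which encodes the C/EBP homologous protein CHOP, had a log2 fold change of 1.27 (adjusted p = 1.58e-11). CEBPG, a dimerisation partner of ATF4, was not called at 0.99 (adjusted p = 2.56e-22), nor was CEBPB at 0.69 (adjusted p = 1.32e-12). ATF5, a factor tied to the mitochondrial unfolded protein response, had 0.34 (adjusted p = 9.4e-06). The 4 kinases that phosphorylate eIF2 were not called: EIF2AK1 had a log2 fold change of 0.06 (adjusted p = 0.204), EIF2AK3 -0.22 (adjusted p = 0.156), EIF2AK4 -0.14 (adjusted p = 0.00301) and EIF2AK2, which stands outside the list, -0.12 (adjusted p = 0.0158). PPP1R15A, the stress-induced subunit that directs dephosphorylation of eIF2, overlapped between groups at 43.5, 46.1 and 45.8 CPM and 47.9, 49.3 and 44.3 CPM (adjusted p = 0.444). The pseudokinase TRIB3 and the BH3-only apoptosis gene BBC3 were the remaining called members, with log2 fold changes of 1.66 and 1.77 (adjusted p = 1.06e-38 and 2.24e-10).

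Genes of serine synthesis and mitochondrial one-carbon metabolism rose together. Of 14 tested, 5 were called higher and 0 lower, with a list median of 0.49. The serine pathway proper runs through PHGDH, PSAT1 and PSPH, and all 3 were called. PSAT1, phosphoserine aminotransferase, had the largest gain in CPM of all called nuclear genes, from 185, 199.96 and 197 to 569, 549 and 567 CPM, or 1.53 as log2 fold change (SE 0.034, adjusted p = 9.18e-40). PHGDH, phosphoglycerate dehydrogenase, went from 139, 145 and 135 to 409, 394 and 371 CPM (log2 fold change 1.49, adjusted p = 2.94e-37). PSPH, phosphoserine phosphatase, went from 41.9, 43.6 and 44.5 to 89.3, 88.2 and 88.2 CPM (log2 fold change 1.03, adjusted p = 1.34e-23). In none of them did a pentamidine library fall within the vehicle range. In the mitochondrial folate steps, MTHFD2 was called at 1.09 (from 171, 169.8 and 168 to 367, 359 and 355 CPM, adjusted p = 9.64e-33) and ALDH1L2, the mitochondrial 10-formyltetrahydrofolate dehydrogenase, at 2.67 (from 1.40, 2.57 and 1.30 to 12.1, 11.2 and 10.4 CPM, adjusted p = 2.04e-17). SHMT2 and MTHFD1L passed the adjusted p only, with log2 fold changes of 0.59 (adjusted p = 1.96e-20) and 0.38 (adjusted p = 1.51e-11).

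Other amino acid genes rose in part. The list of asparagine, proline and transsulfuration enzymes had 3 of 14 called higher and 0 lower, with a median of 0.44. ASNS, asparagine synthetase, was at 2.14, 1.81 and 1.5 CPM with vehicle and 9.57, 8.57 and 8.50 CPM with pentamidine (log2 fold change 2.29, adjusted p = 5.64e-15). PCK2, the mitochondrial phosphoenolpyruvate carboxykinase, was at 18.7, 22.3 and 22.2 CPM and 92.5, 86.7 and 84.8 CPM (log2 fold change 2.06, adjusted p = 3.92e-33). CBS, cystathionine β-synthase, was called at 1.57 (adjusted p = 6.5e-21), and its level is uncertain because GRCh38 holds a near-identical copy of the gene. CTH, the next enzyme of transsulfuration, overlapped between groups at -0.04 (adjusted p = 0.889), and 4 members of this list were lower at the adjusted p, among them ALDH18A1 of proline synthesis at -0.25 (adjusted p = 4.24e-07).

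Among amino acid transporters, 3 of 14 were called higher and 0 lower, with a median of 0.41. SLC7A11, the cystine and glutamate exchanger, was at 23.6, 22.0 and 19.6 CPM with vehicle and 93.6, 95.1 and 91.7 CPM with pentamidine (log2 fold change 2.11, adjusted p = 1.84e-34). SLC6A9, a glycine carrier, was at 12.2, 9.86 and 13.0 CPM and 45.5, 42.2 and 43.3 CPM (log2 fold change 1.90, adjusted p = 9.72e-26), and SLC1A4, a carrier of neutral amino acids, had 1.97 (adjusted p = 4.09e-16). The groups did not overlap for any of these 3 genes. The subunits of the leucine carrier, SLC7A5 and SLC3A2, passed the adjusted p without a call, at 0.97 (adjusted p = 9.08e-33) and 0.84 (adjusted p = 1.4e-27). SLC7A11-AS1, a transcript over SLC7A11 on the opposite strand, was called as well (4, 2 and 4 counts and 22, 12 and 20 counts) and carries the same doubt over strand as AF111167.2. Of 20 cytosolic aminoacyl-tRNA synthetases tested, 12 were higher and 6 lower at the adjusted p with a median of 0.47, and the cysteinyl enzyme CARS alone was called (1.08, adjusted p = 1.1e-29). The methionyl and glycyl enzymes MARS and GARS came close at 0.99 (adjusted p = 3.21e-32) and 0.94 (adjusted p = 1.03e-31).

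**Figure D2:**
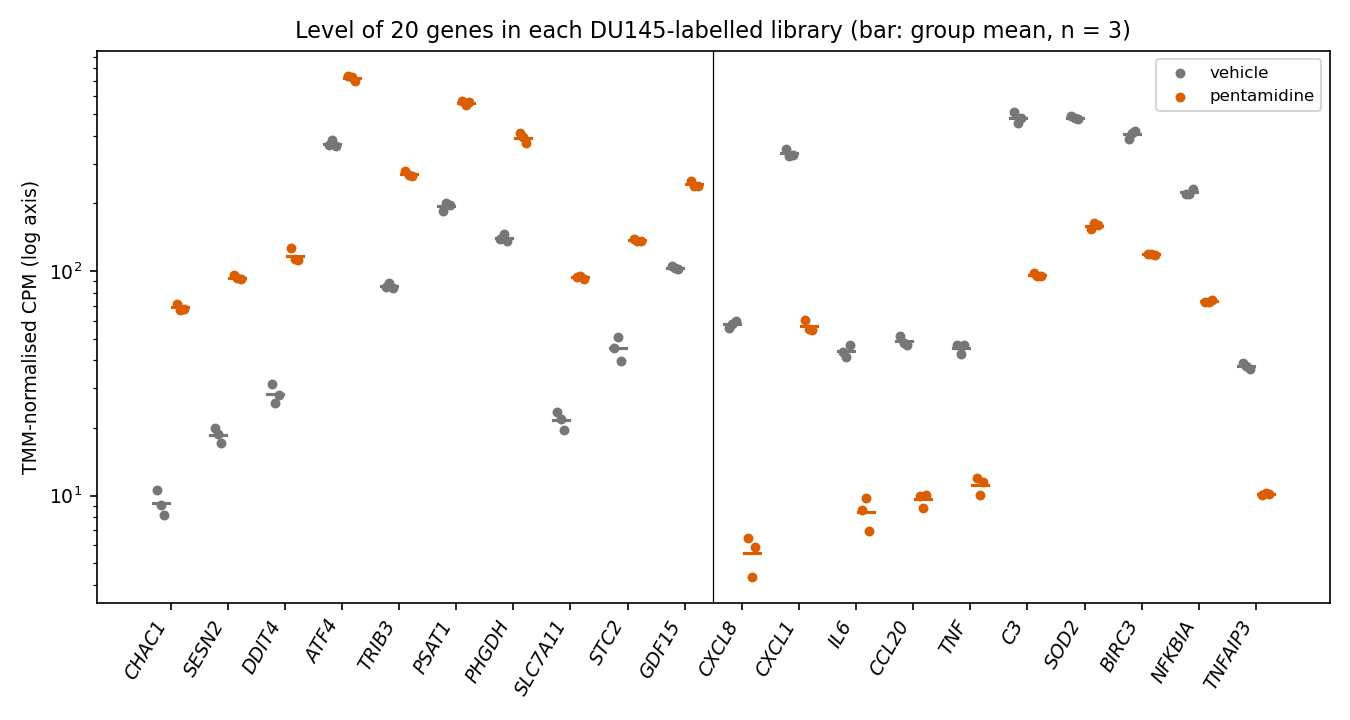
TMM-normalised CPM (log axis) of 20 genes in each DU145-labelled library, vehicle in grey and pentamidine in orange, with a bar at the mean of each group (n = 3). For the 10 genes on the left every pentamidine library lies above every vehicle library, and for the 10 on the right every one lies below.

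To show the promoter sequences of these genes, RefSeq windows of 300 bases around each start site (GRCh38.p14, 250 bases before to 50 after) were searched on both strands for the C/EBP-ATF response element TGATGNAA. Of the 14297 nuclear genes tested, 9879 had a window and 2.56% of those held the element. It was found in 5 of the 16 genes with a window among the 20 called higher on the stress response, amino acid and tRNA synthetase lists: ATF3, CHAC1, JDP2, ASNS and SLC1A4. Over all genes called higher it was in 11 of the 121 with a window (9.09%), and over those called lower in 2 of 46 (4.35%), BCL2A1 and NLRP3. A stretch of 30 bases is printed around the element nearest the start site for the 4 genes with one upstream of it, with the element in capitals (as its reverse complement in CHAC1), each 5′ to 3′ in the direction of the gene.
CHAC1, chr15:40953251-40953280, plus strand: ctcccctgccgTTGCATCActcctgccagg
ATF3, chr1:212565205-212565234, plus strand: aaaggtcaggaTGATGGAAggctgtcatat
ASNS, chr7:97872458-97872487, minus strand: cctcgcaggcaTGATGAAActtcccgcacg
JDP2, chr14:75427992-75428021, plus strand: tatatagccggggcTGATGCAAcccgtccc
These elements end between 9 bases (JDP2) and 202 bases (CHAC1) before the RefSeq start. In GENCODE 29 the printed stretch lies outside the gene for ATF3, in no exon for JDP2, and over an exon of a longer transcript for CHAC1 and ASNS. A match is a description of letters, and no binding was measured. Since ATF4 is known to raise genes of these kinds, the share on these lists was favoured by the choice of lists.

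Most genes of the NF-kB list, which holds chemokines, cytokines and feedback inhibitors, fell. Of 35 tested members of the NF-kB list, 17 were called lower and 0 higher, 31 were lower and 0 higher at the adjusted p alone, and the median log2 fold change was -0.98. CXCL8, interleukin 8, an attractant of neutrophils, fell the most of all called protein-coding nuclear genes. It lies on chromosome 4 at 73740506 to 73743716 (ENSG00000169429). CXCL8 was at 55.7, 57.8 and 59.8 CPM in the vehicle libraries and at 6.45, 4.32 and 5.87 CPM in the pentamidine libraries, which is -3.38 on the log2 scale (SE 0.092, adjusted p = 1.7e-35). CXCL1, which binds the same receptor, was at 348, 324 and 329 CPM and 60.7, 54.9 and 54.5 CPM (log2 fold change -2.56, adjusted p = 6.29e-46). CCL20, the ligand of CCR6, was at 51.4, 47.6 and 46.6 CPM and 9.93, 8.84 and 10.1 CPM (log2 fold change -2.33, adjusted p = 3.43e-30). All vehicle libraries were above all pentamidine libraries for these 3 chemokines. CXCL3 and CXCL2, close relatives of CXCL1 that may share reads with it and each other, had log2 fold changes of -2.24 (adjusted p = 7.01e-11) and -1.15 (adjusted p = 8.17e-06), and CXCL2 was no longer beyond the fold limit without pentamidine replicate 3 (-0.96). CCL2, an attractant of monocytes, was at 3.61, 2.43 and 3.14 CPM and 1.06, 1.55 and 0.967 CPM (log2 fold change -1.34, adjusted p = 0.000119). On limma's log2(CPM + 1) scale, which understates changes at low levels, CXCL2 and CCL2 were at -0.88 and -0.85, within the fold limit.

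Cytokine genes fell as well. IL6 was at 43.7, 41.2 and 46.8 CPM with vehicle and 8.58, 9.72 and 6.98 CPM with pentamidine, or -2.38 as log2 fold change (SE 0.092, adjusted p = 1.67e-28). TNF was at 46.7, 42.6 and 47.0 CPM and 11.99, 10.1 and 11.5 CPM (log2 fold change -2.02, adjusted p = 2.03e-27). LTB, lymphotoxin β, was at 9.06, 9.30 and 11.5 CPM and 3.83, 2.43 and 2.90 CPM (log2 fold change -1.71, adjusted p = 3.89e-12). None of the 3 overlapped between groups. LIF, a cytokine of the IL6 family, was not called at -0.70 (adjusted p = 4.6e-24), and CSF1 had -0.52 (adjusted p = 0.00207). Outside the list, CSF3, granulocyte colony-stimulating factor, was at 13.4, 13.2 and 12.7 CPM and 1.99, 2.36 and 1.04 CPM (log2 fold change -2.86, adjusted p = 1.37e-19).

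Genes of effector proteins fell from high levels. C3, the central component of complement, was at 508, 457 and 479 CPM with vehicle and 98.2, 94.5 and 94.5 CPM with pentamidine, or -2.33 as log2 fold change (SE 0.038, adjusted p = 5.23e-46), and a transcript inside it on the same strand, AC008760.2, was called lower as well. SOD2, the mitochondrial superoxide dismutase, was at 492, 479.7 and 473 CPM and 153, 163 and 161 CPM (log2 fold change -1.60, adjusted p = 2.02e-40). BIRC3, the ubiquitin ligase cIAP2, was at 387, 412 and 421 CPM and 119, 119 and 117 CPM (log2 fold change -1.78, adjusted p = 2.09e-41). With CXCL1 and ICAM1, these had the 5 largest losses in CPM among called nuclear genes. ICAM1, an adhesion receptor for leukocytes, was at 366, 345 and 349 CPM and 121, 125 and 115 CPM (log2 fold change -1.55, adjusted p = 3.58e-38). BCL2A1, a member of the BCL2 family that protects from apoptosis and stands outside the list, was at 16.4, 15.8 and 16.8 CPM and 3.05, 2.36 and 1.38 CPM (log2 fold change -2.85, adjusted p = 2.05e-21).

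Some feedback inhibitors were called, and the subunits of NF-kB were not. NFKBIA, which encodes IkBα, was at 221, 221 and 231 CPM with vehicle and 72.9, 72.5 and 74.0 CPM with pentamidine (log2 fold change -1.62, adjusted p = 1.69e-37). TNFAIP3, the ubiquitin-editing enzyme A20, was at 38.8, 37.6 and 36.8 CPM and 10.1, 10.3 and 10.2 CPM (log2 fold change -1.89, adjusted p = 2.02e-25). NFKBIZ, a nuclear IkB protein, had -1.28 (adjusted p = 6.45e-30) and TNFAIP2 -1.39 (adjusted p = 1.29e-15). The inhibitors NFKBIB and TNIP1 were not called, at -0.32 (adjusted p = 1.74e-05) and -0.82 (adjusted p = 1.05e-21). The pentamidine libraries of the 4 called genes were all below the vehicle libraries. Of the subunits, RELB was at -0.90 (adjusted p = 4.53e-17), NFKB1 at -0.63 (adjusted p = 9.51e-17), REL at -0.58 (adjusted p = 8.75e-06) and NFKB2 at -0.58 (adjusted p = 7.44e-19). RELA, the subunit that carries most of the transactivation of the classical pathway, moved little, from 189.5, 184 and 180.1 to 174, 166 and 164 CPM (-0.14, adjusted p = 0.003). NFKBIE (-0.04, adjusted p = 0.75), TRAF1 (-0.02, adjusted p = 0.956), CD40 (-0.07, adjusted p = 0.385) and BCL3 (0.05, adjusted p = 0.779) were the 4 members that passed no test.

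The kappaB motif was looked for in the same promoter windows. It was held by 17.7% of the 9879 tested nuclear genes with a window, by 23 of the 46 genes called lower with a window, by 25 of the 121 called higher with one (20.7%), and by 10 of the 15 genes called lower on the NF-kB list with one. That list was made of the pathway and its target genes, so its share was favoured by the choice of members and adds no support. CXCL8, TNF, ICAM1, SOD2, C3, CCL2 and TNFAIP2 were not among those 10, for want of the motif or of a window. Only genes with the motif are shown, 30 bases each in the direction of the gene with the motif in capitals, as its reverse complement in all but IL6.
CXCL1, chr4:73869305-73869334, plus strand: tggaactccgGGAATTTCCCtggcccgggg
CXCL3, chr4:74038748-74038777, minus strand: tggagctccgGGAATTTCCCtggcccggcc
IL6, chr7:22727117-22727146, plus strand: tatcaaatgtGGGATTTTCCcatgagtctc
CCL20, chr2:227813753-227813782, plus strand: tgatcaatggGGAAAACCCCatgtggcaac
TNFAIP3, chr6:137867194-137867223, plus strand: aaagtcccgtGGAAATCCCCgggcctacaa
BIRC3, chr11:102317339-102317368, plus strand: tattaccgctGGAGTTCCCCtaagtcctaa
CXCL1 and CXCL3 hold the same 10 letters at the same distance, 69 to 78 bases before the start. The stretches of CXCL1 and BIRC3 lie outside the gene in GENCODE 29, those of IL6 and CCL20 in no exon, and those of CXCL3 and TNFAIP3 over an exon of a longer transcript. The C/EBP-ATF element was in 0 of the same 15 genes, and the core of the sterol regulatory element, TCACNCCAC, was in 1.44% of all windows, 2 of the 121 genes called higher and 0 of the 46 called lower. Both JDP2 and SLC1A4 held the C/EBP-ATF element as well as the kappaB motif.

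Further genes stood among the 12 protein-coding genes with the largest change in each direction. NDUFA4L2, a mitochondrial protein and known target of hypoxia-inducible factor, had 1, 2 and 0 counts with vehicle and 12, 15 and 23 with pentamidine, a ratio of 16.95 per total count with a 95% interval of 5.47 to 84.9 that covers counting error only (exact binomial), and it overlaps SHMT2 on the opposite strand. ADM2, a peptide hormone of the calcitonin family, was at 3.46, 4.03 and 4.02 CPM and 22.0, 21.7 and 21.8 CPM (log2 fold change 2.50, adjusted p = 6.99e-24). ULBP1, a ligand of the natural killer receptor NKG2D, was at 5.82, 5.14 and 5.25 CPM and 27.4, 23.0 and 22.2 CPM (log2 fold change 2.16, adjusted p = 3.12e-22). The groups were apart for each of these 3 genes, as their choice required. GNG7, a G protein γ subunit, the BH3-only gene HRK and CYS1, which encodes the ciliary protein cystin, were called at 1 to 6 counts per vehicle library and 16 to 44 per pentamidine library, with log2 fold changes of 2.54 (adjusted p = 3e-05), 2.46 (adjusted p = 1.04e-06) and 2.36 (adjusted p = 1.12e-05). The third non-coding gene named, AC126696.3, rested on 0, 9 and 0 counts with vehicle and 12, 16 and 15 with pentamidine (log2 fold change 2.19, adjusted p = 0.00268). On limma's scale GNG7 and AC126696.3 were at 0.98 and 0.77, within the fold limit, as were AF111167.2 (0.78) and SLC7A11-AS1 (0.87).

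Of the low genes that fell, KCND3, a potassium channel, had 17, 14 and 33 counts with vehicle and 4, 3 and 3 with pentamidine (log2 fold change -2.66, adjusted p = 1.22e-05). S100A3, a calcium-binding protein, had 25, 29 and 30 and 5, 7 and 4 counts (log2 fold change -2.39, adjusted p = 1.86e-06), and TNFSF14, the cytokine LIGHT, 16, 23 and 13 and 6, 2 and 2 counts (log2 fold change -2.36, adjusted p = 0.000143). NPHS1, nephrin, and C6orf58 had log2 fold changes of -2.29 (adjusted p = 1.65e-05) and -2.25 (adjusted p = 0.000167) from 12 to 35 counts per vehicle library. None of these 5 genes overlapped between groups, as their choice required. On limma's scale KCND3, TNFSF14 and C6orf58 were at -0.97, -0.83 and -0.80, within the fold limit. The 3 non-coding genes with the largest fall were MTATP6P1 (-4.70), MTND2P28 (-4.02) and MTCO1P12 (-3.90), copies of mitochondrial sequence on chromosome 1 that share reads with the mitochondrial genes, as may MTND4P12 (-2.15) and MTRNR2L10 (1.72), so their values are uncertain.

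Secreted stress factors moved both ways. Of 17 tested, 4 were called higher and 1 lower, with a median of 0.0073. STC2, the glycoprotein stanniocalcin 2, was at 45.2, 50.5 and 39.9 CPM with vehicle and 139, 135 and 136 CPM with pentamidine (log2 fold change 1.60, adjusted p = 6.78e-32). GDF15, a circulating stress hormone, was at 105, 103 and 102 CPM and 252, 239 and 239 CPM (log2 fold change 1.23, adjusted p = 5.54e-33). VEGFA, the angiogenic growth factor, had 1.14 (adjusted p = 4.3e-24), and HBEGF, a ligand of the EGF receptor, fell from 65.2, 65.3 and 64.0 to 32.2, 31.4 and 30.8 CPM (-1.04, adjusted p = 2.06e-21) but was just inside the limit under scaling by library size alone (-0.99) and with limma (-0.97). No vehicle library overlapped a pentamidine library for these 4 genes. On the hypoxia list 2 of 18 were called higher, NDUFA4L2 and EPAS1, which encodes hypoxia-inducible factor 2α and was at 32.6, 26.1 and 25.6 CPM and 110.3, 121 and 112 CPM (log2 fold change 2.03, adjusted p = 9.98e-34), and the list's median was 0.013. HIF1A itself was at -0.14 (adjusted p = 0.000959).

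On the list of NRF2 targets, genes of the oxidant response, 3 of 19 were called higher and 0 lower, with a median of 0.11. At the adjusted p alone 9 were higher and 2 lower. SLC7A11 was one of them, shared with the transporter list. FTH1, the ferritin heavy chain, gained the fifth most CPM of the called genes (121, 148 and 220.5 with vehicle, 279, 363 and 358 with pentamidine, 1.03, adjusted p = 9.6e-15), but the vehicle libraries differed widely, FTH1 has many processed copies that can share its reads, and its log2 fold change went below 1 without vehicle replicate 1 (0.85), vehicle replicate 2 (0.96), pentamidine replicate 2 (0.96) or pentamidine replicate 3 (0.97). ABCC3, an organic anion exporter, was called at 1.03 (adjusted p = 2e-09) and lost the call without vehicle replicate 3 (0.84) or pentamidine replicate 1 (0.98), and without vehicle replicate 1 (0.996). NQO1 and FTL passed the adjusted p only, at 0.76 (adjusted p = 2.86e-24) and 0.66 (adjusted p = 8.06e-25), HMOX1, heme oxygenase 1, was at 0.37 (adjusted p = 7.42e-15), and the subunits of glutamate-cysteine ligase, GCLM and GCLC, were at -0.28 (adjusted p = 1.64e-06) and -0.04 (adjusted p = 0.699). Members called on the p53 list were SESN2 and BBC3, both also on the stress response list, 2 of 22 with a median of 0.22. At the adjusted p alone 11 were higher and 4 lower. TP53INP1 and PHLDA3 stayed just under the limit at 0.99 (adjusted p = 5.32e-06) and 0.93 (adjusted p = 0.00383). CDKN1A, the cyclin-dependent kinase inhibitor p21, was at 0.37 (adjusted p = 1.8e-10) and MDM2 at -0.16 (adjusted p = 0.0143).

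A further 6 lists had a single called member. Called higher were KLF4 among 23 immediate early factors (1.56, adjusted p = 1.45e-09), MT1F among 9 genes of metallothioneins and zinc transport (1.63, adjusted p = 0.000184), ITGB4 among 21 genes of integrins and junctions (1.20, adjusted p = 6.01e-08; 0.98 without vehicle replicate 3) and ISG20 among 23 interferon-stimulated genes (1.01, adjusted p = 0.00188; 0.84, 0.88 and 0.96 without vehicle replicate 3 and pentamidine replicates 1 and 2). Called lower were TGFBI among 20 genes of TGF-β signalling (-1.15, adjusted p = 0.000612) and S100A3 among 9 genes of S100 and secreted epithelial proteins. With limma the calls of MT1F (0.90), TGFBI (-0.73) and ISG20 (0.72) were lost as well. The medians of these 6 lists lay between -0.085 and 0.033.

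In 18 of the 34 lists no member was called, and several of these leaned one way at the adjusted p alone, to be read against 17.2% and 16.7% of all nuclear genes. Cytosolic ribosomal proteins were higher for 64 of 69 and lower for 1, with a median of 0.24 that lay between 0.21 and 0.29 under every alternative run. RPL13A went from 1191, 1244 and 1242 to 1789.9, 1730.1 and 1693 CPM (0.50, adjusted p = 7.77e-21) and RPS2 had 0.42 (adjusted p = 3.82e-18), while RPS26 was the member that was lower (-0.15, adjusted p = 0.0139). Ribosomal protein genes have processed copies, so single values are uncertain. Small nucleolar RNA host genes, many of which belong to the same class of transcripts that start with a pyrimidine tract, were higher for 8 of 20 and lower for 0 (median 0.17), with GAS5 at 0.45 (adjusted p = 4.59e-16).

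Most chaperones of the endoplasmic reticulum and the cytosol were lower. On the list of endoplasmic reticulum chaperones and the unfolded protein response, 15 of 23 were lower and 2 higher (median -0.22), HSPA5, the chaperone BiP, going from 1003, 1018 and 999 to 741, 745 and 747 CPM (-0.44, adjusted p = 1.99e-18) and HSP90B1 having -0.41 (adjusted p = 1.49e-17). Of 15 cytosolic heat shock proteins 10 were lower and 2 higher (median -0.26), with HSPA8 at -0.43 (adjusted p = 1.89e-19) and DNAJA1 at -0.42 (adjusted p = 1.29e-15). The mitochondrial chaperone HSPD1 was at -0.24 (adjusted p = 1.74e-09), and its list of 15 had 3 higher, among them HSPA9 (0.18, adjusted p = 2.11e-06), and 3 lower, with a median of -0.0085.

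Most cholesterol and glycolysis genes were lower by small amounts. Of 24 genes of cholesterol synthesis and uptake, 15 were lower and 1 higher (median -0.22). HMGCS1, which makes HMG-CoA, went from 131, 145 and 131 to 87.2, 90.4 and 90.0 CPM (-0.61, adjusted p = 6.16e-17), whereas TM7SF2 was the member that was higher (0.89, adjusted p = 4.77e-11). Of 22 glycolysis genes 13 were lower and 2 higher (median -0.10), with LDHA at -0.34 (adjusted p = 3.11e-15) and PFKFB3 at -0.43 (adjusted p = 1.82e-17). Fatty acid genes were divided, with 2 of 14 higher and 4 lower (median -0.040), SREBF1 at 0.52 (adjusted p = 6.56e-17) and FASN at -0.29 (adjusted p = 1.75e-10).

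Proliferation genes shifted slightly. Of 42 S phase genes, 18 were lower and 2 higher (median -0.12), and of 46 mitosis genes 19 were lower and 4 higher (median -0.075). FEN1 and MCM10, a nuclease and an origin factor of DNA replication, had -0.41 (adjusted p = 1.02e-13) and -0.46 (adjusted p = 8.23e-12), CDC20 and ANLN of mitosis and cytokinesis -0.28 (adjusted p = 6.77e-11) and -0.33 (adjusted p = 4.93e-11), and the kinase CDK1 overlapped between groups (-0.01, adjusted p = 0.875). The S phase members that were higher were the replication genes CDT1 (0.17, adjusted p = 0.00133) and MCM5 (0.13, adjusted p = 0.000961). Replication-dependent histones were lower for 7 of 15 and higher for 0 (median -0.42), with HIST1H1C at -0.71 (adjusted p = 1.33e-20) and HIST1H2BK at -0.70 (adjusted p = 1.03e-19). Their mRNAs lack a poly(A) tail and are under-represented after poly(A) selection, so these values may not report most of that mRNA. Among 19 cell cycle inhibitors and G1 cyclins 8 were higher and 3 lower (median 0.095), with CCND2 at 0.77 (adjusted p = 2.27e-11).

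The 3 lists of nuclear genes for mitochondrial complexes, gene expression and ribosomes held no called gene. Nuclear subunits of oxidative phosphorylation were higher for 14 of 75 and lower for 6 (median 0.055), with SDHA, a subunit of complex II, at -0.46 (adjusted p = 9.16e-18) and COX5A of complex IV at 0.29 (adjusted p = 4.15e-07). Genes of mitochondrial DNA expression and replication were lower for 16 of 36 and higher for 4 (median -0.15). Examples were FASTKD2 (-0.39, adjusted p = 2.31e-08), ELAC2 (-0.28, adjusted p = 3.56e-10) and TFAM, which packages mitochondrial DNA (-0.18, adjusted p = 0.000238). Mitochondrial ribosomal proteins were higher for 8 of 74 and lower for 18 (median -0.020). The remaining lists were lysosome and autophagy genes (15 of 37 higher, 7 lower, median 0.070), extracellular matrix genes (5 of 25 higher, 11 lower, median -0.13) and keratins (2 of 4 higher, 2 lower, median 0.062). In these, SQSTM1, the autophagy receptor p62, was at 0.51 (adjusted p = 3.07e-16), the collagenase MMP1 at -0.93 (adjusted p = 7.7e-31), PLAU at -0.98 (adjusted p = 4.47e-25), KRT80 at 0.99 (adjusted p = 7.65e-20) and KRT8 at -0.56 (adjusted p = 1.88e-23). ACTB and GAPDH, often used for reference, were at -0.09 (adjusted p = 0.008) and 0.03 (adjusted p = 0.467).

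**Figure D3:**
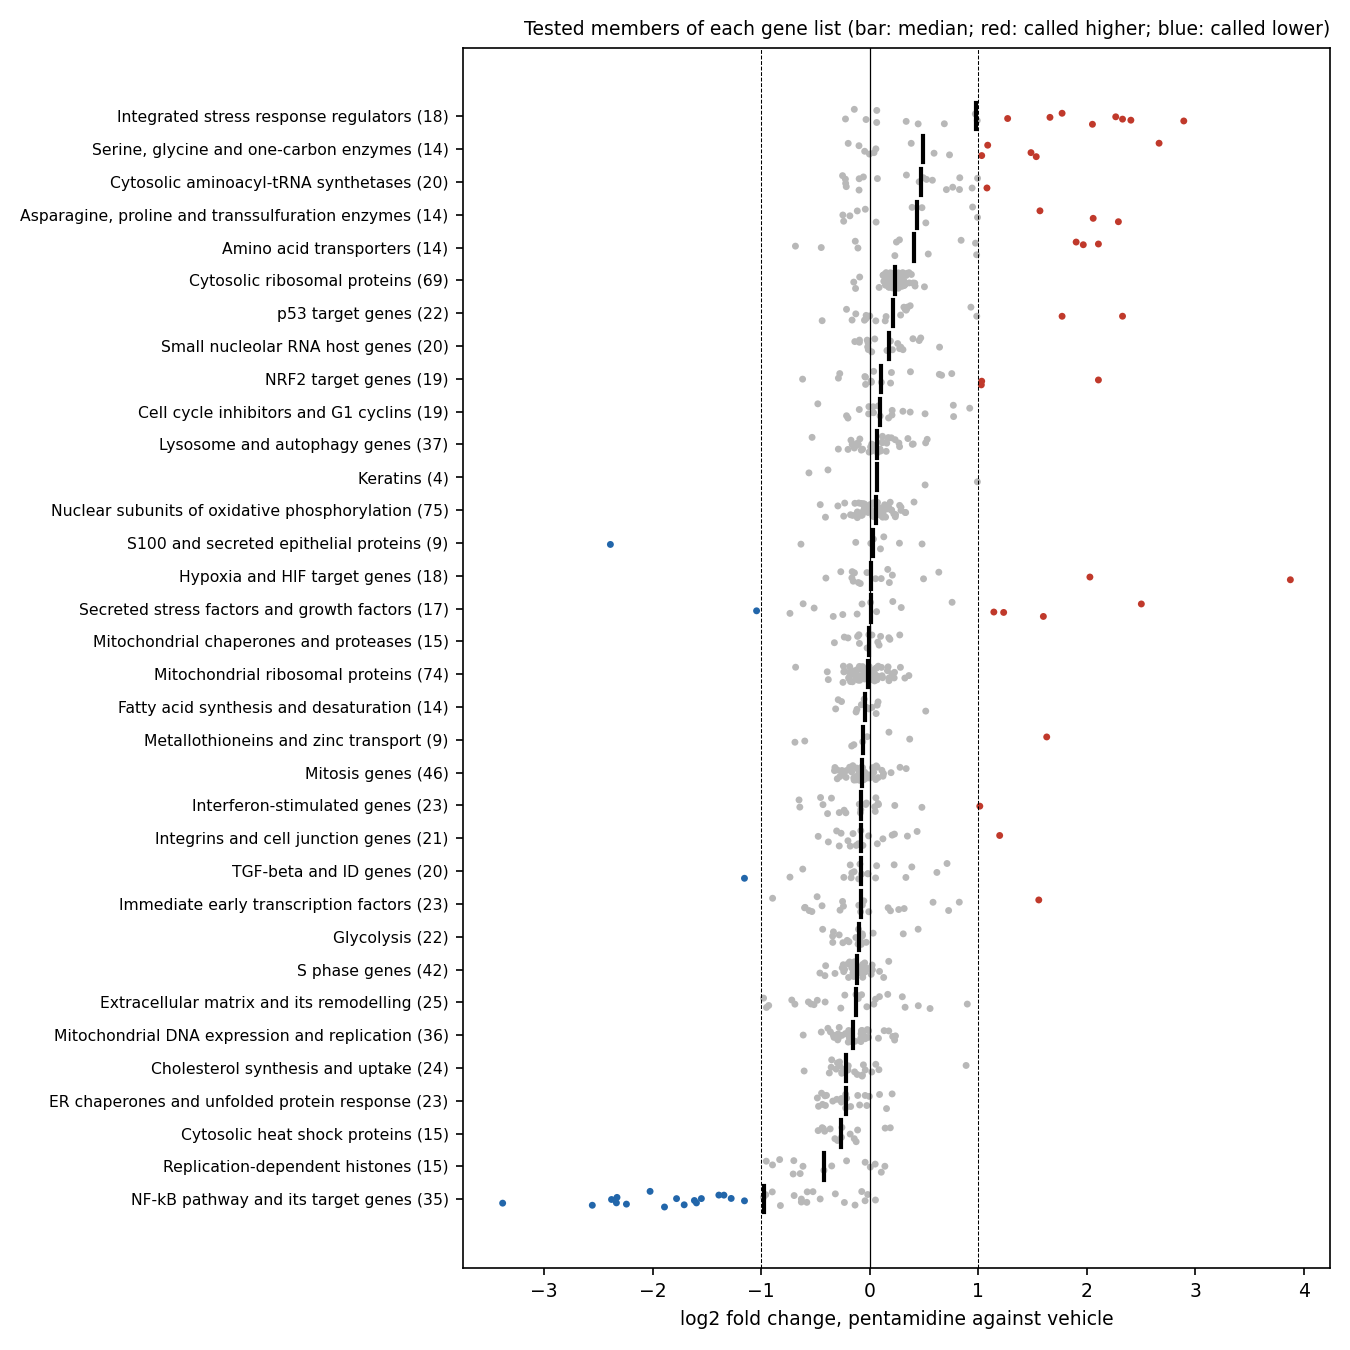
Log2 fold change (pentamidine against vehicle) of every tested member of each of the 34 gene lists, with the number tested in brackets and a bar at the list's median; called genes are red or blue. The lists run from the stress response regulators (median 0.98) at the top to the NF-kB list (median -0.98) at the bottom, and the cytosolic ribosomal proteins form a narrow cloud above 0.

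Cells labelled PC3, the other line of the series, had the same dose and time, so the difference between the lines' responses was tested as an interaction. Over 15209 nuclear genes, 2.61% had responses that differed by more than 1 on the log2 scale with an adjusted p below 0.05. Of the 80 genes called lower in DU145-labelled cells, the interaction was called for 23, with the more negative value in DU145-labelled cells for all 23. Some of these, such as IL6, rose in PC3-labelled cells. In PC3-labelled cells 10 of the 80 were called lower, 2 higher and 41 neither, and 27 were not tested. Of the 194 called higher, 68 were called higher in PC3-labelled cells too, 1 was called lower, 60 were not called and 65 were not tested. Their interaction was called for 29, with the more positive value in DU145-labelled cells for 13. These genes were chosen for their change in DU145-labelled cells, which favours a larger change there among the called differences.

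The NF-kB list differed between the lines. Its interaction was called for 13 of 35 members, all with the more negative value in DU145-labelled cells, and its median in PC3-labelled cells was -0.094. For CXCL8 the value in PC3-labelled cells was -0.14 (adjusted p = 0.0405), a difference of -3.24 (standard error 0.11, adjusted p = 7.84e-18). IL6 was called in opposite directions, lower in DU145-labelled cells and higher at 1.15 in PC3-labelled cells (adjusted p = 2.99e-07; difference -3.52, adjusted p = 1.15e-15). CCL20 had 0.98 in PC3-labelled cells (difference -3.32, adjusted p = 7.38e-16). Another gene called in opposite directions was TNFSF18, a TNF family ligand outside the list at 1 to 2 CPM in DU145-labelled cells. It was at -1.08 in DU145-labelled cells and 2.12 in PC3-labelled cells (difference -3.19, adjusted p = 2.8e-08). Its call in DU145-labelled cells was lost with DESeq2 (-1.09, adjusted p = 0.0561) and limma (-0.58). The third, CBLN2, a secreted synaptic protein outside the list, was at 1.04 in DU145-labelled cells and -1.65 in PC3-labelled cells (difference 2.69, adjusted p = 3.17e-08), and its call in DU145-labelled cells was lost with DESeq2 (adjusted p = 0.0745), with limma (0.62), and without pentamidine replicate 1 (0.90), vehicle replicate 1 (0.98) or vehicle replicate 2 (0.996). BIRC3 fell in both, at -1.37 in PC3-labelled cells (adjusted p = 1.62e-10), and its difference of -0.41 was within the limit. Of 33 list members tested in PC3-labelled cells, 1 was called lower, BIRC3, and 1 higher, IL6. At the adjusted p alone, others fell there by less than in DU145-labelled cells, such as TNF (-0.97, adjusted p = 0.000234), NFKBIA (-0.81, adjusted p = 5.83e-08) and CXCL1 (-0.57, adjusted p = 1.6e-07). Still others rose there, such as CXCL2 (0.80, adjusted p = 1.14e-06) and LIF (0.66, adjusted p = 1.02e-08).

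Many stress response genes rose in both lines, by less in DU145-labelled cells for some. The interaction was called for 7 of 18 members of that list, all smaller in DU145-labelled cells, and the list's median in PC3-labelled cells was 1.54. DDIT4 had 5.30 in PC3-labelled cells (difference -3.25, adjusted p = 1.07e-17), and PPP1R15A, which overlapped in DU145-labelled cells, had 1.59 (difference -1.53, adjusted p = 2.56e-12). No difference beyond its error was found for ASNS, with 2.29 in PC3-labelled cells and a difference of -0.00045 (standard error 0.26), or for PHGDH, with a difference of -0.04 (standard error 0.06). HSPA5 was lower in DU145-labelled cells and at 0.54 in PC3-labelled cells (adjusted p = 3.32e-08), a difference of -0.98 (adjusted p = 1.19e-14) that just missed the limit of 1. HIST1H2BK was at 1.08 in PC3-labelled cells, a difference of -1.78 (adjusted p = 3.46e-13), one of 9 histones of 15 with a called interaction. The limit from poly(A) selection holds for these histones too. The S phase list, at -0.12 in DU145-labelled cells, had a median of -0.74 in PC3-labelled cells. No interaction was called among its 42 members, but differences below the limit of 1 were present. FEN1, MCM10, CDT1 and MCM5, named above, had 0.84, 0.80, 0.55 and 0.81 in the interaction test (adjusted p = 6.86e-10, 1.62e-08, 1.47e-06 and 2.89e-10).

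**Figure D4:**
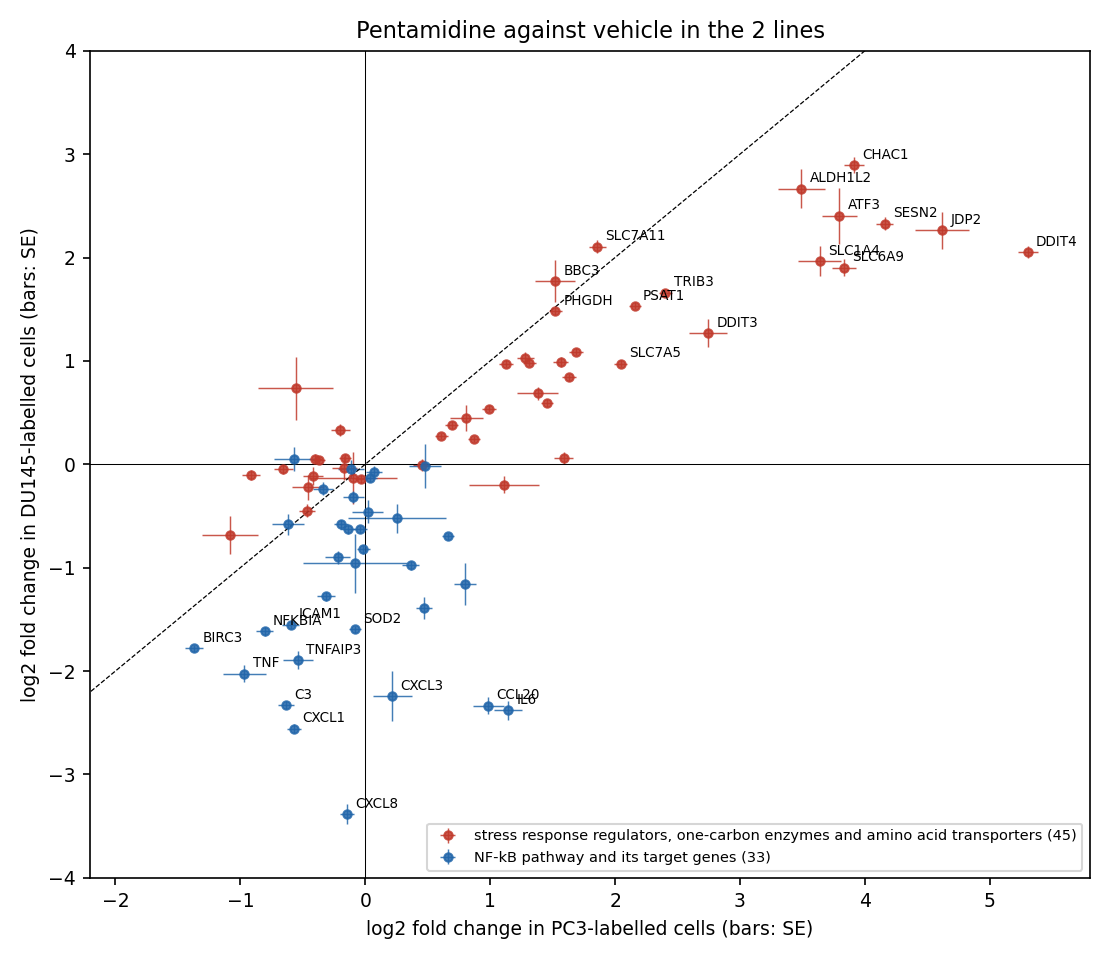
Log2 fold change with pentamidine in DU145-labelled cells (vertical axis) against PC3-labelled cells (horizontal axis), with standard errors as bars; red, 45 tested members of the stress response, one-carbon and amino acid transporter lists; blue, 33 tested members of the NF-kB list. Most blue points lie below the dashed line of equal response, with CXCL8, IL6 and CCL20 farthest from it, and most called red points lie to its right.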

How the data were processed

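Poly(A)-selected RNA was sequenced as paired reads by the study. Per the labels, the authors aligned reads with HISAT2 2.1.0 to GRCh38 and tested genes with DESeq 1.18.1, and the counting program and its strand setting are not given in the sources used here. Read counts per gene were deposited as whole numbers without normalisation. A second deposited table, named for FPKM, holds CPM, since 100% of its 384876 values equal the count scaled to the library total, and it was used only for that check. Tables of the authors' own comparisons (fold changes and p-values) were not used. Of 33595 entries with an Ensembl identifier, 32077 genes were kept as 1 row per name and set of counts, and 44 wrapped annotation lines that belong to no gene of their own were left out.

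Counts of the 6 DU145-labelled libraries were tested with edgeR 4.0.16 in R 4.3.3 (filterByExpr with a minimum count of 10, TMM, quasi-likelihood, Benjamini-Hochberg over all genes tested, mitochondria-encoded ones included). TMM factors were 0.982 to 0.984 with vehicle and 1.01 to 1.02 with pentamidine. The printed CPM use these factors. The interaction with line was fitted over all 12 libraries. Alternatives used DESeq2 1.42.0 and limma 3.58.1, other scalings and filters, and the leaving out of each library. The code was tested on simulated data. Libraries of a group differed by more than counting error. Same-numbered vehicle and pentamidine libraries did not deviate together (correlations of -0.008, 0.006 and -0.011), so numbers were not taken as pairs.

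The 34 gene lists, 5 marker lists and the members were chosen with earlier results of these data known. Named genes were the 12 coding and 3 non-coding called nuclear genes with the largest change in each direction (at least 10 counts in every library of the higher group, no overlap), the 5 largest gains and losses in mean CPM, up to 3 called genes of each list and direction, or, where none was called, the 2 members with the smallest adjusted p, and ACTB, GAPDH and TFAM. A further 104 genes were singled out after their values were seen, among them ATF4, DDIT3, DDIT4, NFKBIA, TNFAIP3, TNF and the NF-kB subunits. Promoter windows are RefSeq's (GRCh38.p14), matched by symbol, and figures were drawn with matplotlib. A few genes and markers were not analysed here.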

Additional observations from a re-analysis of the deposited data

Results flagged for a closer look

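Of the 24 protein-coding and 6 non-coding genes with the largest change in either direction, 13 had responses that differed between the lines by the interaction test. These genes were chosen for their change in DU145-labelled cells, which favours a larger change there. Values are the log2 fold change in DU145-labelled cells minus that in PC3-labelled cells (edgeR). Among genes that rose in both, the rise was smaller in DU145-labelled cells for JDP2 (-2.35, adjusted p = 2.96e-06), ADM2 (-2.14, adjusted p = 2.99e-08), SESN2 (-1.83, adjusted p = 1.93e-14), ATF3 (-1.39, adjusted p = 0.00389) and CHAC1 (-1.02, adjusted p = 3.54e-07).

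The value was more negative in DU145-labelled cells for 8 genes, of which IL6 and CCL20 rose in PC3-labelled cells (1.15 and 0.98). Of the 8, 7 encode cytokines, chemokines, complement or a survival protein of the BCL2 family: IL6 (-3.52, adjusted p = 1.15e-15), CCL20 (-3.32, adjusted p = 7.38e-16), CXCL8 (-3.24, adjusted p = 7.84e-18), CSF3 (-2.04, adjusted p = 1.56e-07), CXCL1 (-1.99, adjusted p = 1.77e-17), BCL2A1 (-1.92, adjusted p = 0.000765) and C3 (-1.70, adjusted p = 3.35e-15). KCND3, the last, had a difference of -3.97 (adjusted p = 0.0088) at 3 to 33 counts per DU145-labelled library and was not tested in PC3-labelled cells alone.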

How the results depend on the processing

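Against 194 higher and 80 lower, there were 111 higher with DESeq2 (all 111 among the 194), 92 higher and 46 lower with at least 10 counts in every library, 59 higher and 34 lower with limma on log2(CPM + 1), and 2457 higher and 2387 lower by adjusted p alone. Fewer genes are tested under the count filter, and the adjusted p alone has no fold limit. The limma scale understates changes at low levels, and the cause was not tested further for limma or DESeq2. Under the remaining alternatives the counts lay within 1.5 times: DESeq2 gave 62 lower, other scalings or filters gave 188 to 235 higher and 67 to 104 lower, and with each of the 6 libraries left out 185 to 215 were higher and 84 to 95 lower. The replicate number as a block gave 190 higher and 79 lower and 360 called interactions, and since the numbers do not pair the libraries this is given as a count only. Called interactions numbered 397, and 299 to 408 under their alternatives. Over the 198 named genes no log2 fold change reversed among 2947 alternative values, 63 values in 26 genes lost the call and 29 values in 11 genes gained it, mostly near a log2 fold change of 1. The sign of a list median changed in some alternatives for secreted stress factors (-0.12 to 0.14), fatty acid genes, hypoxia genes, mitochondrial chaperones, S100 genes and mitochondrial ribosomal proteins, whose medians were near 0. The larger group mean was under 10 CPM for 158 of the genes called higher, and how depth limits such calls was not tested.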

Other observations

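Genes outside the lists made up 162 of the 194 called higher and 60 of the 80 called lower, and those named next were chosen after their values were seen. At 10 CPM or more, 13 unlisted genes were called higher. SLC48A1, a heme transporter of the lysosome, was at 64.8, 66.6 and 66.6 CPM with vehicle and 183, 188 and 179.8 CPM with pentamidine (log2 fold change 1.47, adjusted p = 7.97e-35), and RAPGEF3, an exchange factor driven by cAMP that overlaps it on the opposite strand (as the uncalled HDAC7 does too), had a log2 fold change of 1.17 (adjusted p = 2.06e-21). SCG2, secretogranin 2, was at 6.12, 6.04 and 4.71 CPM and 18.9, 19.3 and 18.5 CPM (log2 fold change 1.75, adjusted p = 7.46e-18). FAM84B was at 9.06, 9.58 and 9.75 CPM and 27.0, 27.9 and 31.8 CPM (log2 fold change 1.61, adjusted p = 3.11e-20), and had 0.08 in PC3-labelled cells (difference 1.53, adjusted p = 6.18e-11). TSC22D3, a leucine zipper protein raised by glucocorticoids, had 1.77 (adjusted p = 5.16e-15), and ZNF362 and TUBE1 had 1.29 (adjusted p = 1.1e-22) and 1.13 (adjusted p = 2.48e-17). Groups did not overlap for these genes.

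Called lower outside the lists at 10 CPM or more were 16 genes. EFNA1, ephrin A1, was at 212, 205 and 201 CPM with vehicle and 61.6, 61.5 and 67.2 CPM with pentamidine (log2 fold change -1.70, adjusted p = 2.94e-37). MIR3142HG, the host transcript of miR-146a, was at 55.5, 56.5 and 56.5 CPM and 19.2, 22.2 and 20.8 CPM (log2 fold change -1.44, adjusted p = 9.59e-25). IRAK2, a kinase of Toll-like receptor signalling, was at 49.6, 49.6 and 48.5 CPM and 23.3, 20.1 and 21.3 CPM (log2 fold change -1.19, adjusted p = 8.96e-21). The libraries of the 2 groups were apart for all 3 genes. VNN1, a pantetheinase, had -2.05 (adjusted p = 4.77e-25), C15orf48, which AC025580.1 overlaps on the opposite strand, -1.94 (adjusted p = 8.96e-19), EBI3, a subunit of interleukin 27, -1.20 (adjusted p = 7.89e-15), and HIVEP2, a zinc finger protein that binds kappaB motifs, -1.05 (adjusted p = 6.96e-20; -0.98 with limma). At lower levels, NLRP3, the inflammasome sensor, had -1.53 (adjusted p = 1.04e-09) and the receptor CLEC4E -2.18 (adjusted p = 2.12e-06).

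Identity genes outside the comparison were counted in all 12 libraries. EPCAM, CDH1 and KRT19 were at 0 or 1 count in every PC3-labelled library too. The cause was not tested.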
